A study of Mus musculus with 48 samples.

Results

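The 34 genes described here code for enzymes and regulators of sterol and fatty acid synthesis in mPDAC cells. They were chosen by name, with earlier results of these data known, so their counts beside those of all genes are descriptions. Matched to the Ensembl identifiers of the count files, they were 34 of the 50600 genes listed. All 34 were among the 13889 genes that passed the low-count filter. The group holds 7 genes of the mevalonate steps, 11 of the squalene and sterol steps, 6 regulators and transfer proteins, 4 genes of fatty acid synthesis and 6 desaturases and elongases. Cells build cholesterol from acetyl-CoA through mevalonate, isoprenoid diphosphates, squalene and lanosterol. When sterols in the endoplasmic reticulum are scarce, the escort protein Scap carries the SREBP transcription factors to the Golgi, where they are cut, and the released part raises transcription of sterol and fatty acid enzymes. When sterols are plentiful, the Insig proteins hold Scap and SREBP back.

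mPDAC is a mouse pancreatic ductal adenocarcinoma cell line, labelled with the genetic background FVB/N x C57BL6 and an age of 8 weeks, and used here as cultures of 1 line without stroma or other tumour cells. The treated group comprised 3 cultures that received 50 µM N6L, a pseudopeptide antagonist of nucleolin, for 48 h, and the non-treated (NT) group 3 cultures without it. All cells, NT included, were incubated with emetine, which blocks elongating ribosomes, before lysis. RNA was taken from the cytoplasm and from the pooled polysomal fractions of a sucrose gradient of the same lysate, which gave 12 libraries of polyA+ RNA. Culture numbers follow the labels, which give 1, 2 and 4 for NT and 1, 2 and 3 for N6L. No label says whether these cultures were grown independently, so the tests measure the spread between these cultures, which may be technical.

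Library totals, the 4 technical replicates summed, ran from 19519911 to 44972333 counts. The lowest count of Idi1 in a library was 23, and each of the other genes had at least 96 counts in every library. Levels are given in CPM, counts scaled to the library total with TMM factors, so each is relative to the other polyA+ RNA of that library. In bulk samples of this kind fewer expressing cells and less RNA per cell cannot be told apart. Of 10 ductal epithelial markers, 8 were expressed above 1 CPM, while Epcam and Cldn4 stayed under 1 CPM. The fibroblast markers (7 of 7), the endothelial markers (4 of 4), 5 of 6 leukocyte markers, 3 of 4 hepatocyte markers and 6 of 7 acinar markers stayed under 1 CPM in every library. The remaining acinar marker, Cela1, measured 27.6 to 82.7 CPM, and the leukocyte and hepatocyte lists summed to at most 2.26 and 10.8 CPM in a library. Among 5 adipocyte markers, 3 stayed under 1 CPM, and the list summed to 55.7 to 68.6 CPM in NT and 22.8 to 29.7 CPM in N6L cytoplasm. In the polysomes it summed to 61.6 to 94.7 CPM in NT and 35.5 to 54.8 CPM in N6L, and Cidec, a lipid droplet protein gene, and Fabp4 fell in both fractions. Their part in the results was not tested. The exons of 12 of the 34 genes overlap those of another gene, among them Tm7sf2 with Vps51 on the same strand and Acss2 with Gss, Fdft1 with Ctsb, Cyp51 with Akap9 and Srebf1 with Rai1 on the opposite strand. Whether strand was used in the counting is not stated in the sources used here, and reads of these pairs may be mixed.

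N6L treatment came with higher levels of most of these mRNAs, relative to the other RNA of each library, in both fractions. The paper reports a strong decrease of the polysome peaks under N6L. A higher relative level in the polysomal RNA therefore does not give the amount of an mRNA in polysomes per cell. In the cytoplasm, 24 of 34 were higher in N6L than in NT cultures (edgeR's quasi-likelihood fit, FDR by Benjamini-Hochberg over all genes, limit 0.05), against 14.5% of all genes tested, and 0 were lower, against 13.8% of all genes. No lower member reached an unadjusted p under 0.05, and DESeq2 called 24 higher and 0 lower. In the polysomes, 23 were higher, against 6.01% of all genes, and 0 were lower, against 3.66%. Here 1 member, Acaca, was lower at an unadjusted p under 0.05, and DESeq2 called 24 higher and 0 lower. The median log2 change of the 34 was 0.85 in the cytoplasm and 0.98 in the polysomes, while the medians of all genes were 0.04 and 0.00. For 28 members the N6L libraries all lay above the NT libraries in the cytoplasm, against 29.3% of all genes, and also for 28 in the polysomes, against 13.7%.

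The calls overlapped between fractions, whose libraries come from the same lysates. Both fractions called 21 members, the cytoplasm alone called Acly, Fasn and Srebf2, and the polysomes alone called Pmvk and Tm7sf2. Neither fraction called Acaca, Ebp, Elovl5, Fads1, Insig2, Mvk, Scap and Srebf1. The main fit has no block, so it takes both libraries of a lysate as separate when it estimates the spread. Fitted on the polysomal libraries only, 17 members were called higher, against 1.93% of all genes. Acat2, Pmvk, Sc5d, Scd2, Elovl6 and Stard4 then lost their polysomal calls. Fitted on the cytoplasmic libraries only, 25 were called higher, against 20.9%. In the main fit the polysomal count fell to 11 without NT culture 1, when 1.11% of all genes were called higher, and to 9 without N6L culture 2, when 0.92% were. The cytoplasmic count stayed between 16, without N6L culture 2, and 23, without N6L culture 3, when any 1 culture was left out, and 4.02% and 15.3% of all genes were then called higher.

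**Figure D1:**
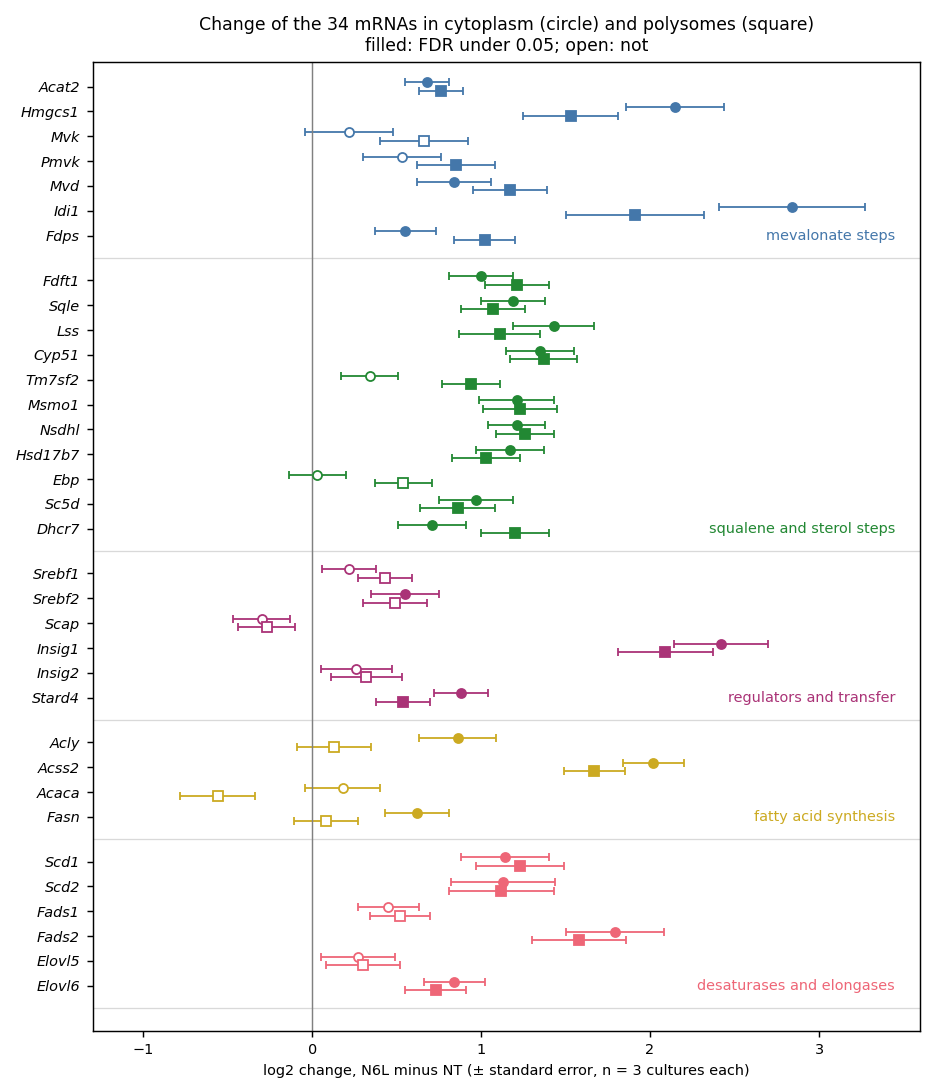
Log2 change, N6L minus NT, of each of the 34 mRNAs (x axis) in the cytoplasm (circles) and the polysomes (squares), with standard errors, 3 cultures per treatment; filled symbols passed an FDR under 0.05 in edgeR's test. Of the 34 genes, 24 are filled in the cytoplasm and 23 in the polysomes, and the fatty acid synthesis genes Acly and Fasn are filled in the cytoplasm alone.

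The NT cultures were not alike for these genes. NT culture 4 held the lowest of the NT values for 25 of 34 members in the cytoplasm (42.3% of all genes) and for 22 in the polysomes (37.0% of all genes). NT culture 2 held the highest for 22 of 34 in each fraction, against 32.8% of all genes in the cytoplasm and 31.0% in the polysomes. Without NT culture 4 the median cytoplasmic change of the 34 was 0.76, with 19 members called higher, against 6.97% of all genes, and the polysomal median was 0.88, with 19 called higher, against 3.39%.

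Of the mevalonate steps, 5 of 7 genes rose in the cytoplasm and 6 of 7 in the polysomes, with median log2 changes of 0.68 and 1.02. Idi1, the isopentenyl diphosphate isomerase, had the largest cytoplasmic change of the 34. It measured 1.59, 3.40 and 1.15 CPM in the cytoplasm of NT cultures 1, 2 and 4 and 13.7, 19.1 and 11.0 CPM in that of N6L cultures 1, 2 and 3. In the polysomes it measured 2.23, 3.50 and 1.42 CPM in NT and 12.1, 9.59 and 5.15 CPM in N6L. Every N6L library lay above every NT library of its fraction, with a log2 change of 2.84 (SE 0.43, FDR 0.00128) in the cytoplasm and 1.91 (SE 0.41, FDR 0.0133) in the polysomes. Per kilobase of transcript Idi1 was the least abundant of the 34 in NT cytoplasm, at 0.677 CPM per kb, and its NT values rest on few counts.

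Hmgcs1, the HMG-CoA synthase that feeds the mevalonate branch, stood at 128, 173 and 123 CPM in NT and 528, 698 and 653 CPM in N6L cytoplasm. Its polysomal levels were 121, 141 and 72.4 CPM in NT and 403, 369 and 194 CPM in N6L. Treatments did not overlap in either fraction, and the polysomal value of N6L culture 3 was the lowest of the treated ones. The log2 changes were 2.15 (SE 0.29, FDR 0.000789) and 1.53 (SE 0.28, FDR 0.0058). Per kilobase, Hmgcs1 went from 40.8 to 181 CPM per kb in the cytoplasm, where only Scd2 was higher among the 34 in N6L.

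Mvd, mevalonate diphosphate decarboxylase, had 58.7, 82.6 and 56.6 CPM in NT and 122, 107 and 125 CPM in N6L cytoplasm, and 67.5, 98.4 and 68.5 CPM in NT and 137, 157 and 235 CPM in N6L polysomes. Its groups stood apart in both fractions, with log2 changes of 0.84 (SE 0.22, FDR 0.0149) and 1.17 (SE 0.22, FDR 0.00729). Fdps, farnesyl diphosphate synthase, had 24.7, 27.3 and 23.6 CPM in NT and 35.4, 36.3 and 39.3 CPM in N6L cytoplasm, and 27.9, 33.4 and 24.2 CPM in NT and 46.7, 54.4 and 72.4 CPM in N6L polysomes. The groups again did not overlap, and the log2 changes were 0.55 (SE 0.18, FDR 0.0343) and 1.02 (SE 0.18, FDR 0.00514).

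Pmvk, phosphomevalonate kinase, had 53.8, 76.9 and 76.6 CPM in NT and 89.3, 98.5 and 110.2 CPM in N6L cytoplasm, and 80.4, 98.9 and 104 CPM in NT and 119.5, 155 and 238 CPM in N6L polysomes. Its polysomal log2 change of 0.85 (SE 0.23, FDR 0.033) passed the limit and its cytoplasmic value of 0.53 (SE 0.23, FDR 0.0947) did not. Acat2, the cytosolic acetoacetyl-CoA thiolase, rose by 0.68 and 0.76 on the log2 scale (FDR 0.00317 and 0.00422). Mvk, mevalonate kinase, had log2 values of 0.22 (SE 0.26, FDR 0.541) in the cytoplasm and 0.66 (SE 0.26, FDR 0.119) in the polysomes and passed in neither. When any 1 culture was left out, the cytoplasmic calls of Acat2, Hmgcs1 and Idi1 held. Those of Mvd and Fdps were lost without NT culture 1, NT culture 4 or N6L culture 2, and that of Fdps also without NT culture 2. In the polysomes, the calls of Acat2, Hmgcs1, Pmvk and Idi1 were lost without N6L culture 2 and those of Mvd, Idi1, Fdps and Pmvk without NT culture 1, and the call of Pmvk was also lost without NT culture 2 or 4 or N6L culture 3.

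Of the squalene and sterol steps, 9 of 11 genes rose in the cytoplasm and 10 of 11 in the polysomes. The medians were 1.17 and 1.11, and the changes of the called genes were close in size to each other, from 0.71 to 1.43 in the cytoplasm and from 0.86 to 1.37 in the polysomes. Fdft1, squalene synthase, which commits isoprenoids to sterols, had 72.9, 91.3 and 63.1 CPM in NT and 150.4, 148 and 156 CPM in N6L cytoplasm. In the polysomes it had 81.6, 108 and 65.2 CPM in NT and 184, 189.5 and 215 CPM in N6L. The groups stood clear of each other in both fractions and the log2 changes were 1.00 (SE 0.19, FDR 0.0031) and 1.21 (SE 0.19, FDR 0.00273).

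Lss, lanosterol synthase, which closes the sterol rings, had 90.7, 125 and 69.5 CPM in NT and 242, 253 and 274 CPM in N6L cytoplasm, and 91.8, 131 and 65.0 CPM in NT and 217, 212 and 191 CPM in N6L polysomes. The log2 changes were 1.43 (SE 0.24, FDR 0.00194) and 1.11 (SE 0.24, FDR 0.013), without overlap between treatments. Cyp51, the demethylase that acts on lanosterol, had 83.6, 92.2 and 67.5 CPM in NT and 193, 226 and 202 CPM in N6L cytoplasm, and 62.7, 75.0 and 42.7 CPM in NT and 164, 163 and 137 CPM in N6L polysomes. Its changes of 1.35 (SE 0.20, FDR 0.00111) and 1.37 (SE 0.20, FDR 0.00188) were nearly equal in the 2 fractions, and NT culture 4 was the lowest library in each.

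Msmo1, methylsterol monooxygenase, had 107, 129 and 87.1 CPM in NT and 244, 275 and 229.6 CPM in N6L cytoplasm, and 119.6, 119 and 69.3 CPM in NT and 270.5, 255 and 199 CPM in N6L polysomes. Nsdhl, a sterol dehydrogenase of the same demethylation, had 81.0, 68.9 and 54.6 CPM in NT and 152, 164 and 156 CPM in N6L cytoplasm, and 72.1, 80.5 and 59.1 CPM in NT and 165, 188 and 154 CPM in N6L polysomes. Neither gene had overlapping groups. Msmo1 changed by 1.21 (SE 0.22, FDR 0.00255) and 1.23 (SE 0.22, FDR 0.00506), and Nsdhl by 1.21 (SE 0.17, FDR 0.000964) and 1.26 (SE 0.17, FDR 0.00148).

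Sqle, the squalene epoxidase, Hsd17b7, a sterol ketone reductase, Sc5d, a sterol desaturase, and Dhcr7, the reductase of the last step, rose by 1.19, 1.17, 0.97 and 0.71 on the log2 scale in the cytoplasm and by 1.07, 1.03, 0.86 and 1.20 in the polysomes. Their largest FDR was 0.0271, for Sc5d in the polysomes. Tm7sf2, a sterol reductase, passed in the polysomes, with a log2 change of 0.94 (SE 0.17, FDR 0.00608), and not in the cytoplasm, with 0.34 (SE 0.17, FDR 0.154). Ebp, the sterol isomerase, had 0.03 (SE 0.17, FDR 0.893) in the cytoplasm and 0.54 (SE 0.17, FDR 0.0576) in the polysomes and passed in neither. Leaving out N6L culture 2 ended the cytoplasmic calls of Sc5d and Dhcr7, and leaving out NT culture 2 that of Dhcr7. In the polysomes, the calls of Fdft1, Cyp51, Nsdhl and Dhcr7 held without any 1 culture. Those of Sqle, Lss, Tm7sf2, Msmo1, Hsd17b7 and Sc5d were lost without N6L culture 2, those of Lss, Tm7sf2 and Sc5d without NT culture 1, and that of Sc5d also without NT culture 2, NT culture 4 or N6L culture 1.

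**Figure D2:**
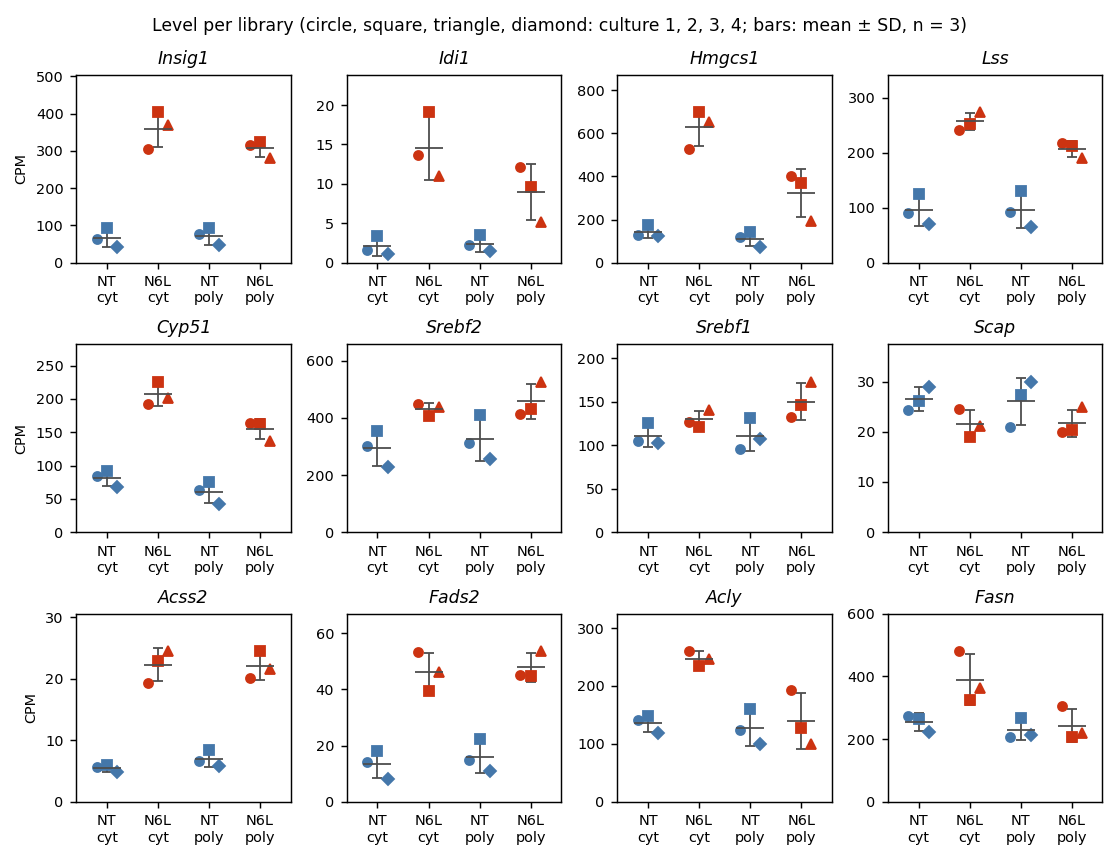
Level of 12 of the mRNAs in each of the 12 libraries, in TMM-scaled CPM (y axis, from 0), by treatment and fraction (cyt, cytoplasm; poly, polysomes); symbols give the culture and bars the mean and SD of 3 cultures. N6L libraries lie above NT libraries for Insig1, Idi1, Hmgcs1, Lss, Cyp51, Acss2 and Fads2 in both fractions, while the groups overlap for Acly and Fasn in the polysomes and for Srebf1 in the cytoplasm and Scap in both fractions.

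Of the 6 regulators and transfer proteins, 3 rose in the cytoplasm and 2 in the polysomes, with medians of 0.41 and 0.46. Insig1, the protein that retains Scap and is itself an SREBP target, had 64.3, 94.0 and 42.9 CPM in NT and 305, 404 and 369 CPM in N6L cytoplasm. Its polysomal levels were 78.0, 92.1 and 46.0 CPM in NT and 317, 325 and 279.8 CPM in N6L. The lowest N6L library exceeded the highest NT library by a wide margin in both fractions. The log2 change was 2.42 (SE 0.28, FDR 0.000486) in the cytoplasm, 5.36-fold, and 2.09 (SE 0.28, FDR 0.00138) in the polysomes, 4.27-fold, and both calls held under all 17 alternatives.

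Its paralog Insig2 had 38.5, 40.7 and 26.6 CPM in NT and 42.0, 43.9 and 41.4 CPM in N6L cytoplasm, and 37.7, 30.6 and 23.2 CPM in NT and 40.1, 43.1 and 30.8 CPM in N6L polysomes. The cytoplasmic groups stood apart by a narrow margin and the polysomal ones overlapped, and neither log2 value passed, 0.26 (SE 0.21, FDR 0.341) and 0.32 (SE 0.21, FDR 0.348). The difference between the paralogs was not tested.

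Srebf2, which codes for the SREBP that acts mainly on sterol genes, had 302, 353 and 228 CPM in NT and 449.7, 407 and 438 CPM in N6L cytoplasm, and 312, 410.2 and 256 CPM in NT and 414, 433 and 527 CPM in N6L polysomes. The groups did not overlap, and the cytoplasmic log2 change of 0.55 (SE 0.20, FDR 0.0467) passed the limit narrowly, whereas the polysomal value of 0.49 (SE 0.19, FDR 0.124) did not. The cytoplasmic call held under 7 of 17 alternatives and was lost without any 1 culture except NT culture 2. Srebf1, which codes for the SREBP forms that act more on fatty acid genes, had 105, 125 and 102 CPM in NT and 127, 121 and 141 CPM in N6L cytoplasm, and 95.5, 131 and 107 CPM in NT and 132, 146 and 173 CPM in N6L polysomes. Its groups overlapped in the cytoplasm, and its log2 values of 0.22 (SE 0.16, FDR 0.303) and 0.43 (SE 0.16, FDR 0.104) did not pass. Counts per gene do not separate its transcript forms.

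Scap had 24.3, 26.2 and 29.0 CPM in NT and 24.6, 18.9 and 21.1 CPM in N6L cytoplasm, and 21.0, 27.4 and 30.0 CPM in NT and 20.0, 20.4 and 24.9 CPM in N6L polysomes. It was the only member with a value below 0 in the cytoplasm, -0.30 (SE 0.17, FDR 0.201), and had -0.27 (SE 0.17, FDR 0.354) in the polysomes, with overlap in both. Stard4, a carrier of sterols between membranes, had 115, 115 and 92.5 CPM in NT and 184, 217 and 192 CPM in N6L cytoplasm, and 94.6, 94.8 and 84.8 CPM in NT and 141, 151 and 107 CPM in N6L polysomes. It rose by 0.88 (SE 0.16, FDR 0.00266) and, less firmly, by 0.54 (SE 0.16, FDR 0.0456). The polysomal call was lost without any 1 culture except N6L culture 3.

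The promoters of the members were also searched for short sequences bound by factors of sterol genes. RefSeq windows (GRCm38.p6) of 250 bases before to 50 after a transcription start were at hand for 27 of the 34 genes, all but Fads1, Fdft1, Fdps, Scd1, Scd2, Sqle and Stard4. On either strand, the CCAAT box ATTGG, the site of NF-Y, stood in the windows of 22 of 27 members (81.5%) and of 41.1% of all 27025 genes with a window. The GC box GGGCGG, the site of Sp1, also stood in 22 of 27 (81.5%), against 38.2% of all genes. The E-box CACGTG stood in 6 of 27 (22.2%), against 8.09%. The sterol regulatory element core TCACNCCAC was found in Hmgcs1 alone, 1 of 27 (3.70%), against 1.44% of all genes. In 0 of the 27 members did matches of different motifs overlap. The 27025 genes outnumber the 13889 tested, so they include genes that did not pass the low-count filter. Shares among the tested genes alone are not given, and a link between these motifs and the changes under N6L was not tested. Among members called in neither fraction, Ebp, Elovl5, Insig2, Mvk and Srebf1 held a CCAAT box and Acaca and Scap did not. The matches are descriptions of sequence and not of binding. The sequences that follow are on the gene's strand and belong to the 4 members with a CCAAT box and the largest cytoplasmic change, with the sterol element of Hmgcs1, and capitals mark the match. Hmgcs1 held 4 CCAAT boxes, of which the one nearest to the sterol element is shown, and Idi1 held 2, of which the one farther from the start is shown. In GENCODE vM21 (GRCm38) the genes span chr13:119690379-119708260 (Hmgcs1), chr5:28071363-28078662 (Insig1), chr13:8885501-8892451 (Idi1) and chr2:155517948-155585724 (Acss2), all on the plus strand.
Hmgcs1, sterol element, chr13:119690204-119690232, upstream of the annotated gene: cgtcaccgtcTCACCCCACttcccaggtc
Hmgcs1, CCAAT box, chr13:119690165-119690189, upstream of the annotated gene: ccgtcccgccATTGGcaggcttgtt
Insig1, CCAAT box, chr5:28071186-28071210, upstream of the annotated gene: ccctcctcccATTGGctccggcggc
Idi1, CCAAT box, chr13:8885551-8885575, overlapping an annotated exon: cctccagctgATTGGcgagcccggg
Acss2, CCAAT box, chr2:155517960-155517984, overlapping an annotated exon: cctacccactATTGGatgcctagag

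Of the fatty acid synthesis genes, 3 of 4 rose in the cytoplasm and 1 of 4 in the polysomes, and the medians were 0.74 and 0.11. Acss2, the acetyl-CoA synthetase that makes acetyl-CoA from acetate, had 5.65, 5.99 and 4.81 CPM in NT and 19.4, 22.9 and 24.5 CPM in N6L cytoplasm, and 6.58, 8.39 and 5.81 CPM in NT and 20.2, 24.5 and 21.6 CPM in N6L polysomes. The groups were far apart in both fractions, at log2 changes of 2.02 (SE 0.18, FDR 0.00015) and 1.67 (SE 0.18, FDR 0.000511), and its cytoplasmic FDR was the smallest of the 34.

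Acly, the lyase that makes acetyl-CoA from citrate, had 142, 148 and 118 CPM in NT and 260.0, 234 and 247 CPM in N6L cytoplasm. In the polysomes it had 123, 161 and 99.6 CPM in NT and 193, 127 and 99.4 CPM in N6L. All treated cultures were higher in the cytoplasm, while in the polysomes only N6L culture 1 lay above the NT range. The cytoplasmic log2 change was 0.86 (SE 0.23, FDR 0.0142) and the polysomal value 0.13 (SE 0.22, FDR 0.755). Fasn, the fatty acid synthase, had 275, 265 and 221 CPM in NT and 480.3, 326 and 362 CPM in N6L cytoplasm, and 208, 268 and 212 CPM in NT and 305, 205 and 220.5 CPM in N6L polysomes. Here too the groups stood apart in the cytoplasm and overlapped in the polysomes, with 0.62 (SE 0.19, FDR 0.0298) and 0.08 (SE 0.19, FDR 0.821).

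Acaca, the acetyl-CoA carboxylase of the committed step, is given by library after its values were seen. It had 18.8, 18.0 and 20.7 CPM in NT and 22.2, 20.5 and 22.5 CPM in N6L cytoplasm, and 16.3, 18.3 and 20.5 CPM in NT and 17.3, 12.1 and 7.89 CPM in N6L polysomes. N6L cultures 2 and 3 were the lowest of the polysomal libraries, and the log2 values of 0.18 (SE 0.22, FDR 0.556) and -0.56 (SE 0.22, FDR 0.124) did not pass. Without N6L culture 1 the polysomal value of Acaca was -0.88 (SE 0.21) and passed. The cytoplasmic call of Acly was lost without NT culture 1, NT culture 4 or N6L culture 2, and that of Fasn without any 1 culture except N6L culture 3. Offsets for length and GC content also ended the cytoplasmic call of Fasn, at a log2 change of 0.24.

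Of the desaturases and elongases, 4 of 6 rose in each fraction, with medians of 0.99 and 0.92. Fads2, the desaturase of the first step to long polyunsaturated fatty acids, had 14.0, 18.1 and 8.01 CPM in NT and 53.2, 39.3 and 46.2 CPM in N6L cytoplasm, and 14.7, 22.3 and 10.8 CPM in NT and 45.2, 44.6 and 53.6 CPM in N6L polysomes. It rose by 1.79 (SE 0.29, FDR 0.00174) and 1.58 (SE 0.28, FDR 0.00548), and NT culture 4 held its lowest level in both fractions. Its neighbour Fads1 had log2 values of 0.45 (SE 0.18, FDR 0.0776) and 0.52 (SE 0.18, FDR 0.0879) and passed in neither.

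Scd2 and Scd1 introduce the double bond of monounsaturated fatty acids, and reads shared by these close paralogs may have been split between them. Scd2, the most abundant of the 34 per kilobase, had 555, 605 and 310.3 CPM in NT and 1176, 1070.0 and 979 CPM in N6L cytoplasm, and 469.7, 532 and 201 CPM in NT and 1014, 902 and 696 CPM in N6L polysomes. Scd1 had 192, 202 and 123 CPM in NT and 396, 389.8 and 354 CPM in N6L cytoplasm, and 137, 156 and 71.6 CPM in NT and 315, 314 and 224 CPM in N6L polysomes. No groups overlapped, and NT culture 4 lay well below the other NT cultures for both. Scd2 changed by 1.13 (SE 0.31, FDR 0.0171) and 1.12 (SE 0.31, FDR 0.038), and Scd1 by 1.14 (SE 0.26, FDR 0.00755) and 1.23 (SE 0.26, FDR 0.0124).

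Elovl6, which lengthens saturated fatty acids, had 22.4, 27.7 and 29.6 CPM in NT and 48.8, 48.6 and 45.3 CPM in N6L cytoplasm, and 18.0, 19.2 and 19.2 CPM in NT and 36.0, 34.1 and 23.4 CPM in N6L polysomes. The groups did not overlap and the changes were 0.84 (SE 0.18, FDR 0.00498) and 0.73 (SE 0.18, FDR 0.0218). Elovl5, which lengthens polyunsaturated fatty acids, had 0.27 (SE 0.22, FDR 0.37) and 0.30 (SE 0.22, FDR 0.406) and did not pass. Without N6L culture 2 the cytoplasmic call of Scd2 and the polysomal calls of Scd1, Scd2 and Elovl6 were lost. Without NT culture 1 the polysomal calls of Scd1, Scd2, Fads2 and Elovl6 were lost, without N6L culture 1 those of Scd2 and Elovl6, and that of Elovl6 also without NT culture 2 or 4. Offsets for length and GC content ended the cytoplasmic call of Elovl6, at 0.43.

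The distribution between polysomes and cytoplasm was compared next, within each treatment. In NT cultures 0 of 34 members differed between the fractions by edgeR's test, against 0.209% of all genes in either direction. An unadjusted p under 0.05 was reached by 3 members, Cyp51, Sc5d and Elovl6, all lower in the polysomes, and DESeq2 called 0. In N6L cultures 5 members were higher in the polysomes, against 18.4% of all genes, and 7 were lower, against 20.6%. In this fit, without a block, both counts lay near these shares, so they do not set the members apart from other genes. The higher ones were Mvk, Tm7sf2, Pmvk, Fdps and Ebp, with log2 differences of 0.87, 0.70, 0.78, 0.64 and 0.52 (largest FDR 0.026). The lower ones were Hmgcs1 at -0.96, Acly at -0.82, Acaca at -0.80, Sc5d at -0.69, Fasn at -0.68, Elovl6 at -0.61 and Stard4 at -0.57 (largest FDR 0.0225). With the culture as a block, since both libraries of a culture come from the same lysate, 7 members were higher, against 26.1% of all genes. In that fit 14 of 34 were lower, a larger share than the 27.6% of all genes, and this difference in share was not tested.

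These calls depended on the cultures and on a correction for sequence composition. Without N6L culture 2 or without N6L culture 3, 0 members differed, while 8.22% and 11.7% of all genes did. With offsets for transcript length and GC content 2 members were higher, against 8.92% of all genes, and 2 lower, against 10.2%. With the same offsets and the culture as a block, 5 members were higher, against 16.1% of all genes, and 4 lower, against 19.5%. N6L culture 3 held the lowest ratio of the N6L cultures for 21 of 34 members (44.7% of all genes) and the highest for the other 13 (41.1% of all genes).

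The translational index (TI), the log2 polysome-to-cytoplasm ratio of N6L minus that of NT cultures, asks whether an mRNA changed more in one fraction than in the other. Of the 34 members 0 passed an FDR under 0.05, as did 0 of all genes (0%), and DESeq2 also called 0. At an unadjusted p under 0.05 there were 3 members, against 7.73% of all genes, namely Tm7sf2 at 0.61 (SE 0.24, FDR 0.555), Acly at -0.73 (SE 0.32, FDR 0.555) and Acaca at -0.74 (SE 0.31, FDR 0.555). The median TI of the 34 was 0.02 and that of all genes 0.01. The ratios of N6L cultures lay all above those of NT cultures for 4 members, against 15.3% of all genes, and all below for 7, against 14.4%.

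By role, all 4 fatty acid synthesis genes had N6L ratios below every NT ratio, against 14.4% of all genes, and their median TI was -0.63. They include the 2 longest members, Fasn and Acaca, at 10050 and 9513 bases, while Acly and Acss2 have 4426 and 3609 bases. The TI fell with transcript length, as given below, and the part of length in these ratios was not tested. The mevalonate genes had a median TI of 0.33, the squalene and sterol genes 0.02, the regulators -0.01 and the desaturases and elongases 0.01. None of these group values carries a test. The log2 ratios of Acly were -0.20, 0.12 and -0.25 in NT cultures 1, 2 and 4 and -0.43, -0.88 and -1.32 in N6L cultures 1, 2 and 3. Those of Acaca were -0.20, 0.03 and -0.02 in NT and -0.35, -0.76 and -1.50 in N6L cultures. The N6L ratios spread widely for both, with culture 3 the lowest.

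Fasn had ratios of -0.40, 0.02 and -0.06 in NT and -0.66, -0.67 and -0.72 in N6L cultures, close together in the treated ones. Acss2 had 0.22, 0.48 and 0.27 in NT and 0.06, 0.10 and -0.18 in N6L cultures. In contrast, Tm7sf2 had 0.12, 0.16 and -0.01 in NT and 0.34, 0.80 and 0.91 in N6L cultures, the treated ones being higher throughout. Each of these 5 differences gave an exact two-sided permutation p of 0.1, the smallest that 3 cultures against 3 allow. Offsets for length and GC content brought the TI of Acaca to -0.24 and that of Fasn from -0.54 to -0.21, and left that of Acly at -0.65 and that of Tm7sf2 at 0.53. Leaving out N6L culture 3 brought the TI of Acaca to -0.48 and that of Acly to -0.53, and 0 members passed under any alternative.

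**Figure D3:**
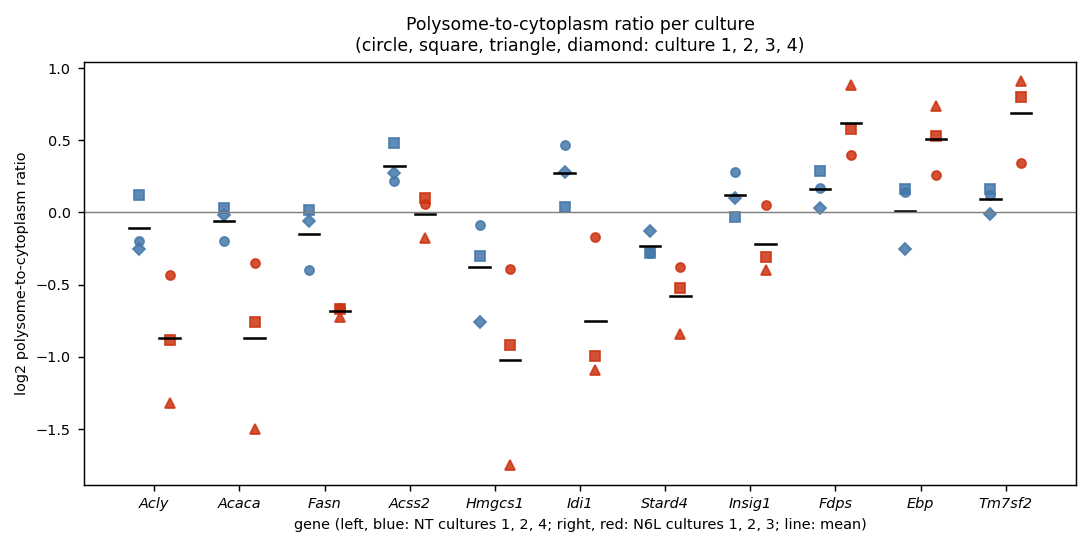
Log2 polysome-to-cytoplasm ratio (y axis) of 11 of the mRNAs in each culture, NT in blue and N6L in red, with the mean of 3 cultures as a line. Acly, Acaca, Fasn, Acss2, Idi1 and Stard4 have N6L ratios below the NT ratios, Fdps, Ebp and Tm7sf2 above them, and the exact permutation test cannot go below 0.1.

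Transcript length and base composition moved with the ratio. Across the 34 members the log2 polysome-minus-cytoplasm difference in N6L cultures correlated with log2 transcript length with Pearson's r of -0.67 (Spearman -0.63), and with GC content with 0.56 (0.60). Over 13867 genes the values were -0.55 (-0.61) and 0.51 (0.52). In NT cultures the members had -0.47 for length and 0.52 for GC content. The TI had a Pearson's r of -0.55 with log2 length and 0.37 with GC content among the members. Over all genes it had -0.46 and 0.37. These are descriptions across genes, which share libraries and are not independent replicates. Pmvk, the shortest of the 34 at 1194 bases, was among the highest in the polysomes, and Fasn and Acaca, the longest at 10050 and 9513 bases, were among the lowest. The N6L change in the cytoplasm had a Pearson's r of 0.01 with log2 length among the members and of 0.43 over all genes. With GC content it had -0.49 among the members and -0.17 over all genes. The N6L change in the polysomes had -0.34 with log2 length and -0.36 with GC content among the members. Over all genes these were 0.13 and 0.12. Acly, at 4426 bases, and Hmgcs1, at 3464 bases, were low in the polysomes at a middling length.

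**Figure D4:**
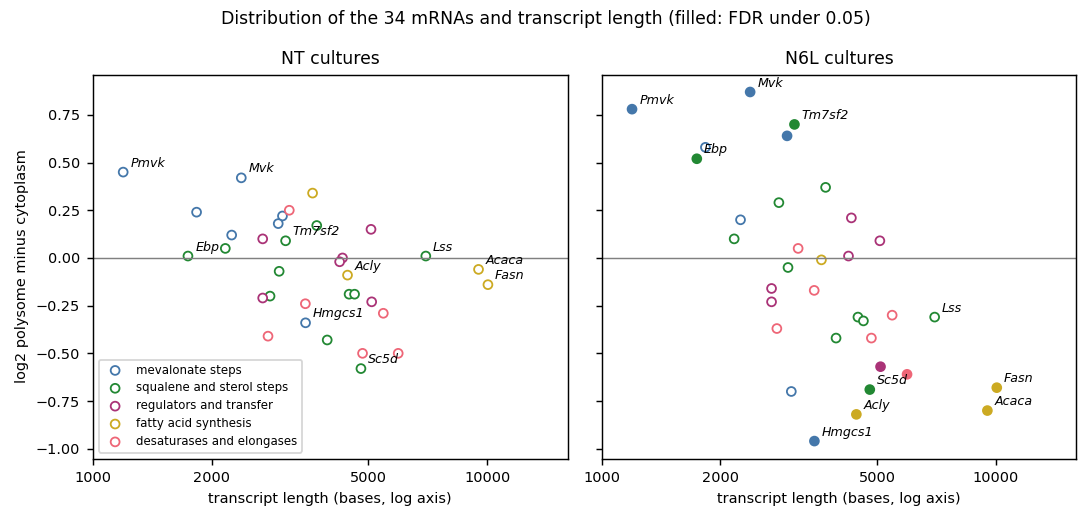
Log2 polysome-minus-cytoplasm difference (y axis) of the 34 mRNAs against the length of their longest annotated transcript (x axis, log scale) in NT and N6L cultures, coloured by role, with filled symbols at an FDR under 0.05. In NT 0 symbols are filled. In N6L 5 filled symbols lie above 0, at 1194 to 3083 bases, and 7 below 0, at 3464 to 10050 bases. Both counts are near the shares of all genes, 18.4% higher and 20.6% lower.

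Other genes tied to the control of sterol levels were taken from lists. Of all genes, 14.5% were called higher and 13.8% lower in the cytoplasm, and 6.01% and 3.66% in the polysomes. Of 14 genes of SREBP processing and sterol-regulated degradation, 4 rose in the cytoplasm. In the polysomes 1 of them rose, a share near that of all genes, and 0 fell in either fraction. The largest cytoplasmic changes were those of Sec24d at 1.32 and Sec23a at 0.77, which code for COPII coat proteins of transport to the Golgi. Of 12 LXR receptors and targets, the genes of the response to surplus sterol, 1 rose and 1 fell in the cytoplasm, no larger a share than of all genes. These were Mylip at 1.09 and Apoe at -0.98, and 3 of the 12 rose and 0 fell in the polysomes. The median log2 changes of these lists in the cytoplasm were 0.25 and 0.19, against 0.04 for all genes.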

How the data were processed

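Cytoplasmic and polysomal polyA+ RNA of 3 NT and 3 N6L cultures was sequenced from stranded TruSeq libraries. The authors aligned the reads with STAR to mm10 and counted them per gene with HTSeq 0.5.3 (per the labels and methods). The deposited values are raw counts per gene, 4 technical replicates for each of 12 libraries. Annotation release, strand setting and handling of multiply mapped reads: not given in the sources used here. Symbols, coordinates, transcript length and GC content were taken from GENCODE vM21 (GRCm38), which held 50376 of 50600 identifiers, and 0 entries named no gene.

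Technical replicates of a library differed by no more than sampling noise (chi-square 1.01 to 1.05 per degree of freedom) and were summed. Labels of 3 replicates of N6L cytoplasm culture 2 disagree on the culture number. They were kept with culture 2, which their titles give. Checked afterwards, their chi-square per degree of freedom was 1.01 to 1.04 against the remaining replicate of culture 2 and 12.0 to 12.1 against culture 1. After filterByExpr and TMM scaling, the counts entered edgeR 4.0.16 under R 4.3.3 (glmQLFit, glmQLFTest, 1 mean per treatment and fraction over all 12 libraries, no block, FDR limit 0.05 over all genes). Log2 ratios per culture used TMM-scaled CPM with a prior count of 2 and exact permutation tests. The fit was tested on simulated counts. Alternatives were RLE factors, library totals alone, other filters, DESeq2 1.42.0, technical replicate a alone, the conflicting replicates left out, each culture left out, blocks, only the groups compared, and offsets for length and GC content. Library totals are given in the report.

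A culture's 2 libraries share a lysate, which pairs them. Deviations from the group means had correlations of 0.364 (NT culture 1), 0.452 (NT culture 2), 0.645 (NT culture 4), 0.0368 (N6L culture 1), 0.199 (N6L culture 2) and 0.229 (N6L culture 3). Members and lists were chosen with earlier results of these data known. The genes given by library are the 6 regulators and transfer proteins and, in each other role, up to 5 called members with the largest change, and from each further list at most 2 genes that rose and 2 that fell. A further list is not reported here.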

Additional observations from a re-analysis of the deposited data

Results flagged for a closer look

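Idi1 was noted because its log2 polysome-to-cytoplasm ratio lay above 0 in every NT culture, at 0.47, 0.04 and 0.28, and below 0 in every N6L culture, at -0.17, -0.99 and -1.09. The TI of Idi1 was -0.93 (SE 0.58), with an unadjusted p of 0.133 and an FDR of 0.556 in edgeR's test, and an exact permutation p of 0.1, so the difference did not pass. Its NT levels ran from 1.15 to 3.50 CPM, below those of every other member.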

How the results depend on the processing

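The number of members called was recomputed under 17 alternatives for the comparisons of N6L with NT and of polysome with cytoplasm, and under 16 for the TI. In the cytoplasm it lay between 22 and 27 (17.0% to 42.2% of all genes called) in all alternatives except those that leave out a culture. In those it lay between 16 and 23 (9.24% to 28.7%). In the polysomes the corresponding ranges were 17 to 26 (2.46% to 19.8%) and 9 to 22 (1.04% to 11.2%). Called members were all higher, except Scap with offsets for length and GC content in both fractions, Acaca with the same offsets in the polysomes, and Acaca without N6L culture 1. The values of Scap with these offsets, -0.37 and -0.45, became -0.25 and -0.33 and did not pass with offsets and the block, where 0 members were called lower in either fraction. For polysome against cytoplasm in N6L the count of 12 (39.0% of all genes called) became 21 with the culture as a replicate block (53.7%). It was 4 with offsets for length and GC content (19.2%) and 9 with offsets and the block (35.6%). When a culture was left out it lay between 0 and 15 (8.22% to 41.8%). For NT, offsets with the block gave 3 (4.68% of all genes), and leaving out a culture gave 0 throughout (up to 2.38%). With offsets, Pmvk, Stard4 and Elovl6 in N6L changed sign, to -0.01, 0.04 and 0.11, and had the same values with offsets and the block, where Lss changed to 0.31. The TI called 0 members under each alternative, and 0 to 0 when a culture was left out. For N6L against NT the cultures share only a number (correlation of deviations 0.228 and 0.0455 in the cytoplasm, 0.296 and 0.00756 in the polysomes). The block on that number gave 23 members in each fraction, all higher, against 18.1% and 5.98% of all genes. Culture 3 occurs only in N6L and culture 4 only in NT. With this block, with or without offsets, the comparison of treatments therefore rests mainly on cultures 1 and 2. Scaling by library totals alone moved the cytoplasmic median of all genes from 0.04 to 0.19 and that of the members from 0.85 to 0.99. The fit of only the groups compared was not made for the TI, which needs all 4 groups. With 3 cultures per treatment, the exact test of a ratio cannot go below 0.1.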

Other observations

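Further lists covered lipid storage, other lipid synthesis and breakdown, and their counts stand against 14.5% of all genes called higher and 13.8% called lower in the cytoplasm, and 6.01% and 3.66% in the polysomes. Of 17 genes of cholesterol storage and transport, 2 rose and 2 fell in the cytoplasm, no larger a share than of all genes, with a median log2 change of 0.00. Osbp, an oxysterol-binding protein, and Lipa, the lysosomal lipase, rose by 0.72 and 0.62. Stard5, a sterol carrier, measured 64.9, 61.3 and 48.8 CPM in NT and 35.5, 33.9 and 33.3 CPM in N6L cytoplasm and changed by -0.77 (SE 0.17, FDR 0.00684). Soat2, which esterifies cholesterol for storage, measured 114, 111 and 87.0 CPM in NT and 63.6, 64.9 and 70.7 CPM in N6L cytoplasm and changed by -0.65 (SE 0.17, FDR 0.015). In the polysomes 2 of the 17 rose and 0 fell.

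Of 24 tested genes of other fatty acid synthesis and activation, 5 rose and 2 fell in the cytoplasm, and 3 rose and 0 fell in the polysomes. Lpin1, a phosphatidate phosphatase of glycerolipid synthesis, rose by 1.96 (FDR 0.000949), and Gpam, which starts that synthesis, by 1.72 (FDR 0.0024). Hacd1 and Hacd2, dehydratases of fatty acid elongation, changed by -1.07 and -0.65. Of 23 tested genes of fatty acid oxidation, 4 rose, a share near that of all genes, and 1 fell in the cytoplasm, and in the polysomes 0 passed, with 5 at an unadjusted p under 0.05. Ppara, the nuclear receptor of fatty acid oxidation, changed by 2.67 (SE 0.46, FDR 0.00228), from 0.122, 0.0908 and 0.1 CPM in NT to 0.863, 0.565 and 0.703 CPM in N6L, with few counts behind it. Ppargc1a, its coactivator, rose by 1.59 and Etfb, an electron carrier subunit, changed by -1.41.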
